A study of Mus musculus with 8 samples.

Results

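In 188 of 12393 measured genes, the difference between CD44hi and CD44lo cells of a mouse T cell lymphoma was not the same in replicates 1 and 3 as in replicates 2 and 4. These genes were chosen by the interaction on the log2 scale, which is the difference CD44hi minus CD44lo in replicates 1 and 3 minus the same difference in replicates 2 and 4, at an adjusted p under 0.05 in limma. The choice therefore used the values below, which describe the genes and are no test of them. Of the 12393 genes 1.52% passed, with 94 genes (0.758%) above 0 and 94 (0.758%) below 0. Above 0 means that CD44hi stood higher against CD44lo in replicates 1 and 3 than in replicates 2 and 4. The count of 188 depends on the fit and on single arrays, as given below. With the replicate number added to the limma fit as a block, 12 genes passed.

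The study hybridised RNA to 8 Affymetrix Mouse 430A 2.0 arrays, 4 of CD44hi cells and 4 of CD44lo cells. Per the labels, both subpopulations were purified from stable T cell lymphoma lines of mice deficient in Snf5, the product of Smarcb1 and a core member of the chromatin remodeller SWI/SNF. Both groups carry that deficiency, no agent or time is named, and the labels give neither the number of lines nor the age or strain of the mice. The replicate numbers come from the titles, and the labels do not say what a number stands for, nor that the replicates were separate cultures. The pairing of 1 with 3 and of 2 with 4 was taken from the values in earlier work on these data, so the sets are no labelled condition, and the labels do not give what separates them.

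CD44 is a cell surface receptor for hyaluronan. T cells raise it on activation and keep it high as memory cells, and it is used to sort subpopulations of leukaemias and lymphomas. SWI/SNF complexes move nucleosomes and so affect which genes a cell can transcribe.

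Each combination of group and replicate set had 2 arrays. All standard errors (SE) below are from the limma fit with 4 residual degrees of freedom, and they cover the spread among the arrays alone, part or all of which can be technical. Since the replicate sets were taken from these same values, that spread, the SE and the adjusted p values can be too small. If replicates 1 and 3, or 2 and 4, were repeats of 1 preparation, each combination would hold 1 independent value and the interaction would have no replicate check. Between the 2 arrays of a combination the root mean square difference over all genes was 0.18 for CD44hi 1 and 3, 0.17 for CD44lo 1 and 3, 0.30 for CD44hi 2 and 4, and 0.19 for CD44lo 2 and 4. Array medians lay between 320.3 and 339.1 on the linear intensity scale, and precision is limited by how few arrays there are. Since an array reads the RNA of a whole population, fewer cells with a transcript and less of it per cell cannot be told apart.

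Cd44, the gene of the sorting marker, and Cd8a, Ebf1, Gata3 and Smarcb1 did not pass the threshold for the interaction. That does not show that an interaction was absent, since its SE was 0.40 for Cd44 and 0.49 for Ebf1. Cd44 had log2 intensities of 11.20 and 11.20 on CD44hi arrays 1 and 3, 5.79 and 5.55 on CD44lo arrays 1 and 3, 11.63 and 11.73 on CD44hi arrays 2 and 4, and 5.94 and 4.92 on CD44lo arrays 2 and 4. The groups were far apart in both sets, by 5.53 and 6.25, and the interaction of -0.72 (SE 0.40) was not called. Cd8a differed by -0.00 and -0.02. Ebf1, a B lineage transcription factor, differed by 6.72 and 6.45, and Gata3, a T lineage transcription factor, by -3.40 and -3.73. Smarcb1 lay between 6.62 and 7.12 on all arrays with an interaction of 0.40 (SE 0.16). No Snf5-proficient sample was analysed here, so the last values do not check the deficiency. Of the 9 T cell markers measured, Cd3e, Cd3g, Cd8a, Cd8b1 and Ptprc had mean log2 intensities of 12.81 to 14.01 in every combination, while Cd4, Cd5 and Thy1 lay between 4.17 and 5.29.

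Among the 188 genes the absolute interaction had a median of 0.98 on the log2 scale and a range of 0.58 to 2.88, and 90 genes reached 1. In the 94 genes above 0 the median CD44 difference was 0.22 in replicates 1 and 3 and -0.71 in replicates 2 and 4. In the 94 genes below 0 it was -0.20 and 0.77. The corresponding medians over all genes were 0.00 and -0.00. An absolute difference of at least 0.5 was seen in 85 of the 188 genes in replicates 1 and 3, against 6.16% of all genes, and in 131 in replicates 2 and 4, against 8.71%. Counted that way, 89 genes differed in replicates 2 and 4 alone, 43 in replicates 1 and 3 alone, 32 in both sets in the same direction, 10 in both sets in opposite directions and 14 in neither. Over all genes those shares were 5.1%, 2.56%, 3.51%, 0.0968% and 88.7%, and since the interaction chose the genes, nothing is read from the contrast.

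**Figure D1:**
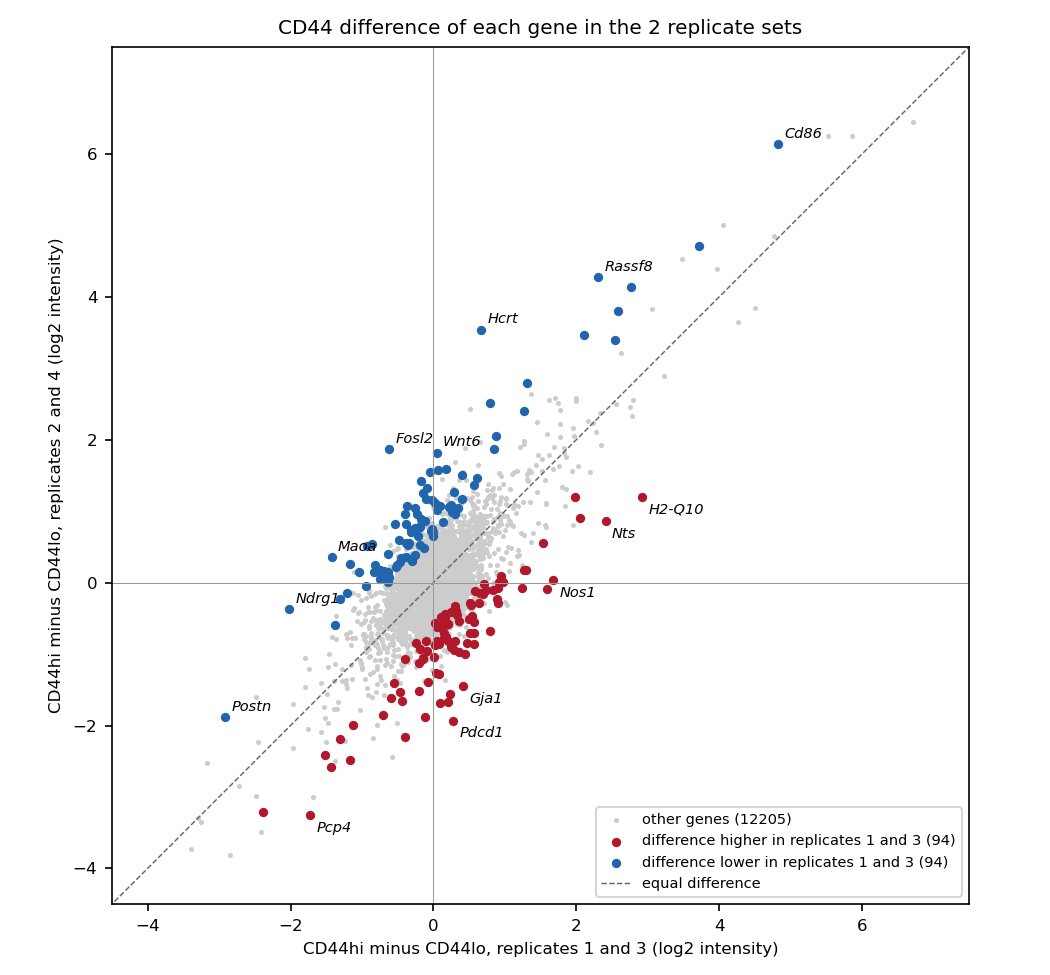
CD44hi minus CD44lo difference of each gene on the log2 scale in replicates 1 and 3 (horizontal axis) and in replicates 2 and 4 (vertical axis). Grey points are the other genes, red and blue points the 94 genes above and the 94 below 0 for the interaction, and the dashed line marks equal differences. Hcrt and Fosl2 lie farthest above the line among the labelled genes and Pdcd1 farthest below it.

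The plot of the difference in 1 set against the other shows most red and blue points stretched along the vertical axis, which holds replicates 2 and 4. For 106 of the 188 genes the combination farthest from the mean of the other three was CD44hi in replicates 2 and 4, above it in 58 and below it in 48. CD44hi in replicates 1 and 3 was farthest for 51 genes, CD44lo in replicates 2 and 4 for 24 and CD44lo in replicates 1 and 3 for 7. Over all genes these shares were 34.3%, 28.1%, 20.5% and 17.1%. CD44hi and CD44lo arrays did not overlap in 164 genes in replicates 1 and 3 and in 173 in replicates 2 and 4, against 54.0% and 45.8% of all genes. They were separated in opposite directions in 89 genes, against 8.15% of all genes.

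**Figure D2:**
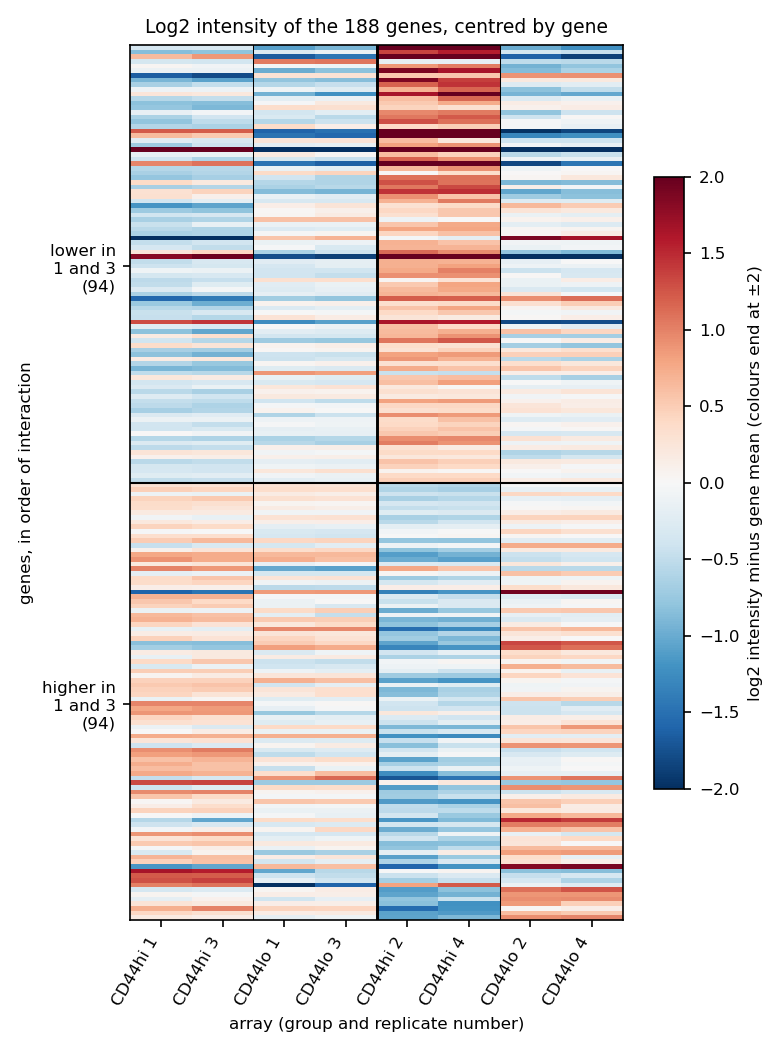
Log2 intensity minus the gene's mean over 8 arrays (colour scale, ending at 2 either side of 0) for the 188 genes, ordered by interaction from most negative at the top. Columns are the arrays, with replicates 1 and 3 left of the thick line and 2 and 4 right of it; the CD44hi 2 and 4 columns are red in most of the upper 94 genes and blue in most of the lower 94.

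The heat map by array shows that within a combination the arrays of most genes had similar colours, and that CD44hi arrays 2 and 4 held the widest blocks. The median difference between these 2 arrays over the 188 genes was 0.14, and it was 0.08, 0.06 and 0.08 in CD44hi 1 and 3, CD44lo 1 and 3 and CD44lo 2 and 4.

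The inhibitory receptor gene Pdcd1 had the largest interaction above 0 and the effector gene Prf1 the next among the named genes. Pdcd1, which encodes the inhibitory receptor PD-1, had log2 intensities of 11.001 and 10.96 on CD44hi arrays 1 and 3 and of 10.65 and 10.75 on CD44lo arrays 1 and 3. On arrays 2 and 4 it read 9.77 and 9.94 in CD44hi and 11.75 and 11.81 in CD44lo. CD44hi arrays were thus slightly the higher ones in the first set and clearly the lower ones in the second, without overlap in either. The difference was 0.28 in replicates 1 and 3 and -1.93 (3.81-fold lower in CD44hi) in replicates 2 and 4, an interaction of 2.21 (SE 0.13).

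Havcr2, the gene of the checkpoint receptor TIM-3, read 11.15 and 11.16 in CD44hi and 10.57 and 10.59 in CD44lo in replicates 1 and 3, and 10.18 and 10.20 in CD44hi and 10.92 and 10.87 in CD44lo in replicates 2 and 4. CD44hi was 1.49-fold higher in the first set and 1.63-fold lower in the second, and the arrays did not overlap in either. Tnfsf9, the ligand of the costimulatory receptor 4-1BB, differed by 0.70 in replicates 1 and 3 and by -0.01 in replicates 2 and 4. Cd86, a ligand of CD28 and CTLA-4, was on the other side. It was 28.3-fold higher in CD44hi in replicates 1 and 3 and 70.5-fold higher in replicates 2 and 4, so that both sets separated the groups in the same direction and only the size differed. Its CD44lo levels, 4.81 to 5.23, lay under the 25th percentile of all values (5.43), so the folds are uncertain, and its second probe set gave an interaction of -0.60 (SE 0.25) against -1.32 (SE 0.21). In the list of 25 measured TNF superfamily and checkpoint genes, 3 of the 188 were above 0 and 1 below, and the median interaction was 0.06 against 0.00 over all genes. Without CD44hi array 1 or 3 or any 1 CD44lo array, 1 or 2 genes of the list passed above 0 and none below, and without CD44hi array 2 or 4 there were 3 and none. With the replicate block Pdcd1 alone passed.

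Prf1, which encodes the pore-forming protein perforin of killer cells, read 11.72 and 11.64 in CD44hi and 11.46 and 11.48 in CD44lo in replicates 1 and 3. It read 10.24 and 10.18 in CD44hi and 11.93 and 11.83 in CD44lo in replicates 2 and 4. CD44hi arrays 2 and 4 were the low ones, and the difference went from 0.21 to -1.67 (interaction 1.88, SE 0.11). The other Prf1 probe set, with a mean log2 intensity of 10.13, did not show it: its interaction was -0.11 (SE 0.12), so the value for this gene depends on the probe set. In the list of 29 memory and effector T cell genes, 5 of the 188 were above 0, against 0.758% of all genes, and none below. Without CD44hi array 1 or any 1 CD44lo array 1 gene of the list passed, without CD44hi array 3 there were 2, and with the replicate block Prf1 alone passed. The other four were S100a4 (interaction 1.13, a calcium-binding protein), Anxa1 (1.01, annexin A1), Lgals3 (0.92, the lectin galectin-3) and Itgal (0.86, the integrin chain of LFA-1). S100a4 differed by 0.31 and -0.82, Anxa1 by 0.50 and -0.51, and Lgals3 by 0.92 and 0.00. The list as a whole had a median interaction of -0.02, with 14 of 29 genes above 0, and the sign of that median turned with quantile normalization (0.01).

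Plek encodes pleckstrin, a protein kinase C substrate of blood cells. Its log2 intensities were 11.09 and 10.99 in CD44hi and 11.16 and 11.15 in CD44lo in replicates 1 and 3, and 9.97 and 10.09 in CD44hi and 11.92 and 11.91 in CD44lo in replicates 2 and 4. The groups lay close together in the first set and were 3.68-fold apart in the second. Both other Plek probe sets gave the same sign and size, 1.78 (SE 0.21) and 2.08 (SE 0.18). Serpinb6b, an inhibitor of serine proteases, had its difference in the other set, 1.29 in replicates 1 and 3 and 0.18 in replicates 2 and 4. Il10ra, the ligand-binding chain of the interleukin 10 receptor, was higher in CD44hi in both sets, by 2.11 and 3.47, although its other 2 probe sets gave interactions of -0.14 and 0.01. It was the only 1 of 34 cytokine and chemokine receptor genes among the 188 (2.94%, against 1.52% of all genes). None of the 33 ligand genes or of the 25 genes of T cell receptor signalling was among them. In lists this small nothing is read from these counts.

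**Figure D3:**
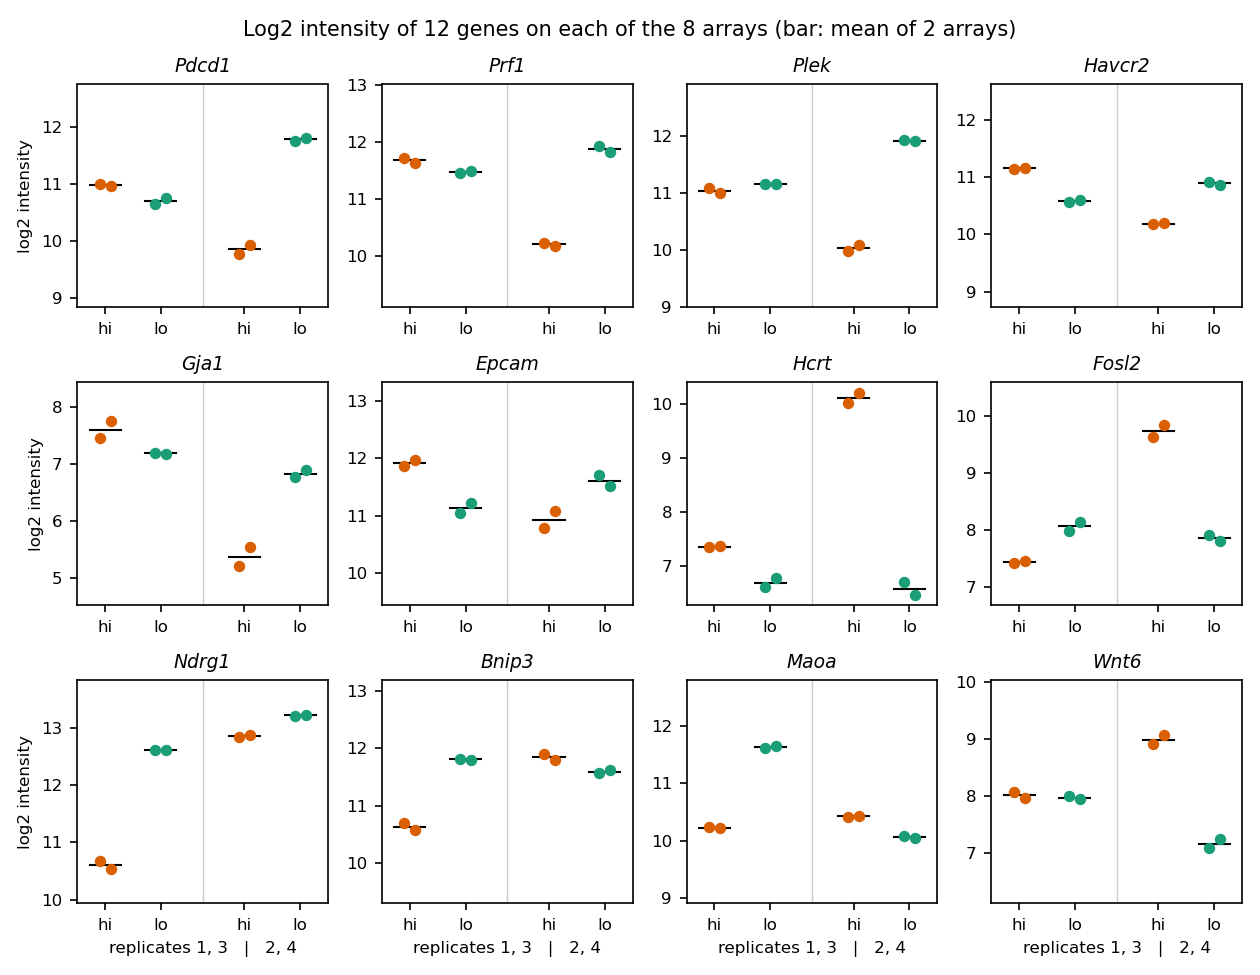
Log2 intensity of 12 of the named genes on each of the 8 arrays, with CD44hi in orange, CD44lo in green, a bar at the mean of 2 arrays, replicates 1 and 3 left of the line in each panel and 2 and 4 right of it. Vertical axes all span at least 3.9 log2 units but start at different levels; in Pdcd1, Prf1, Plek and Gja1 CD44hi arrays 2 and 4 are the lowest, and in Hcrt, Fosl2 and Wnt6 they are the highest.

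The plot of values by array sets some of these genes beside genes that went the other way, such as Fosl2. Fosl2, a Fos family subunit of the AP-1 transcription factor, had 7.42 and 7.46 in CD44hi and 7.98 and 8.14 in CD44lo in replicates 1 and 3, and 9.62 and 9.84 in CD44hi and 7.91 and 7.81 in CD44lo in replicates 2 and 4. CD44hi arrays were the lowest in one set and the highest in the other. CD44hi was 1.54-fold lower in replicates 1 and 3 and 3.66-fold higher in replicates 2 and 4 (interaction -2.49, SE 0.15).

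Klf4, a zinc finger factor of quiescent T cells, differed by -0.26 (SE 0.09) in replicates 1 and 3 and by 1.04 (SE 0.09) in replicates 2 and 4, and its second probe set had an interaction of -1.71 (SE 0.21). Jun, another AP-1 subunit, differed by -0.38 and 0.55, although the second Jun probe set gave a smaller interaction of -0.33 (SE 0.13). Egr1, a zinc finger factor induced by growth and antigen receptor signals, had 11.97 and 12.07 in CD44hi and 12.15 and 12.17 in CD44lo in replicates 1 and 3. It read 11.19 and 11.19 in CD44hi and 12.33 and 12.19 in CD44lo in replicates 2 and 4, where the CD44hi arrays stood below all others. Egr2 and Ier5, named after their values were seen, were also above 0 (0.92 and 0.59). Of 27 immediate-early genes, 3 of the 188 were thus above 0 and 3 below, against 1.52% of all genes in either direction, with a list median of -0.18. Without CD44hi array 1 or 3 or any 1 CD44lo array, no gene of the list passed above 0 and 1 passed below, as did Fosl2 alone with the replicate block.

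NF-kappaB genes gave 2 above 0 and 1 below among 20 measured. Cd83, a surface protein of activated lymphocytes and dendritic cells, was higher in CD44hi by 1.99 in replicates 1 and 3 and by 1.20 in replicates 2 and 4. Map3k8, a kinase that acts in this pathway, was higher by 1.54 and 0.56, and Rel, which encodes the subunit c-Rel, by 0.58 and 1.37. These genes separated the groups in the same direction in both sets. Of 27 T lineage transcription factors 7.41% were among the 188, against 1.52% of all genes. Myb differed by 0.98 in replicates 1 and 3 and by 0.00 in replicates 2 and 4, while Ikzf1, the gene of Ikaros, differed by -0.39 and 0.82. CD44hi arrays 2 and 4 were the highest for Ikzf1, at 8.21 and 8.47 against 6.99 to 7.56 on the others.

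Genes of glycolysis and the hypoxia response held 5 of the 188 among 26 measured (19.2%, against 1.52% of all genes), and all 5 were below 0. That count was 1 or 2 in each of the 6 fits without CD44hi array 1 or 3 or any 1 CD44lo array (1 without CD44lo array 2), and with the replicate block Ndrg1 alone of the 5 passed. Ndrg1, a gene induced by low oxygen and other stress, had 10.68 and 10.53 in CD44hi and 12.62 and 12.62 in CD44lo in replicates 1 and 3, and 12.84 and 12.87 in CD44hi and 13.22 and 13.24 in CD44lo in replicates 2 and 4. CD44hi arrays 1 and 3 stood apart below all others. CD44hi was 4.04-fold lower in replicates 1 and 3 and 1.29-fold lower in replicates 2 and 4 (interaction -1.65, SE 0.11). The other 4 Ndrg1 probe sets gave interactions of -1.63, -1.40, -1.62 and -0.85.

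Bnip3, a mitochondrial protein of mitophagy, read 10.70 and 10.57 in CD44hi and 11.82 and 11.79 in CD44lo in replicates 1 and 3, and 11.91 and 11.80 in CD44hi and 11.56 and 11.62 in CD44lo in replicates 2 and 4. Again CD44hi arrays 1 and 3 were the lowest, and CD44hi went from 2.26-fold below CD44lo to 1.20-fold above it. Aldoc, the aldolase C of glycolysis, differed by -0.73 and 0.15. P4ha1, a catalytic subunit of the prolyl hydroxylase of collagen, differed by -0.63 and 0.15. Pdk1, a kinase that inhibits pyruvate dehydrogenase, differed by -0.52 and 0.22, and its second probe set gave an interaction of -0.88 (SE 0.13) beside -0.75 (SE 0.11). The list's median difference was -0.16 in replicates 1 and 3 and 0.10 in replicates 2 and 4, and 21 of its 26 genes were below 0 for the interaction, most of them by little.

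The upstream sequences of 4 of these 5 genes are printed here because the genes moved together and hypoxia response elements share the core ACGTG. Each run is the 250 bases before the transcription start, 5′ to 3′ on the gene's strand, from RefSeq on GRCm38.p6, and capitals mark the core on either strand. Where capitals read CACGTG the core lies on both strands and overlaps the E-box of Myc. Promoters were matched for 146 of the 188 genes, and for Aldoc and Pdk1 the first of 2 listed promoters is shown.
Bnip3 (chr7:138909507-138909756, reverse strand): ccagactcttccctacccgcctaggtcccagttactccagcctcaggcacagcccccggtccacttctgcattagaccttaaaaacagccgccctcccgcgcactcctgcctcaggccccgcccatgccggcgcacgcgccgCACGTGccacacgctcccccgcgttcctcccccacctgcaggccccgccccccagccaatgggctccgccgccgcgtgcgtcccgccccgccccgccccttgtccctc
P4ha1 (chr10:59323046-59323295, forward strand): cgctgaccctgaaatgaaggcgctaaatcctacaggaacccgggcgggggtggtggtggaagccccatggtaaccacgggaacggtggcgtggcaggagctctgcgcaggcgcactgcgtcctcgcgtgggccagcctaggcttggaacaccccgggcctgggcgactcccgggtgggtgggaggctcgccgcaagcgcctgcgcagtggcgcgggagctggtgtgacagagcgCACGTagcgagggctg
Aldoc (chr11:78322823-78323072, forward strand): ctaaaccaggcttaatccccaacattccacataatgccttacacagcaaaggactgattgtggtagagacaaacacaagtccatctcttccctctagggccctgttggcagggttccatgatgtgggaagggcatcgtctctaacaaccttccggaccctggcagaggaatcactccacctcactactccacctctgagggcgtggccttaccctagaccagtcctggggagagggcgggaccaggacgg
Pdk1 (chr2:71872974-71873223, forward strand): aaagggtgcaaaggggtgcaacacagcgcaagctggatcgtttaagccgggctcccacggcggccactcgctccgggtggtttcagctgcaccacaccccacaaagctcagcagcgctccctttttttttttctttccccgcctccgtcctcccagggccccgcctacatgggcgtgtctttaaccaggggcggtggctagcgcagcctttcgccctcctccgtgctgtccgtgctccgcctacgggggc
The core was found once in P4ha1, on both strands at 1 place in Bnip3, and not in the windows of Aldoc and Pdk1. It was in 11 of 24 matched promoters of the list (45.8%) and in 19.9% of 9887 promoters of all genes. Among the 188 genes it was in 22.2% of promoters of genes above 0 and in 18.9% of those below 0. The motif was chosen after these values were seen, and a match of letters is no evidence of a bound site. Of 14 other motifs searched on both strands, only some are given. The heat shock element and the AP-1 motif were picked after their shares were seen, with the GATA motif and cAMP response element beside them. The heat shock element GAANNTTC was in 8 of 74 promoters of genes below 0 (10.8%), in 1 of 72 of genes above 0 (1.39%) and in 5.42% of all. The AP-1 motif TGANTCA was in 4.05%, 9.72% and 5.51% of these. The GATA motif AGATAA was in 5.41%, 6.94% and 7.17%, and the cAMP response element TGACGTCA in 2.7%, 2.78% and 2.32%.

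Of 34 DNA replication genes measured, 33 had an interaction above 0, with a median of 0.30 against 0.00 over all genes. Only Cdc6 was among the 188 (2.94% of the list, against 1.52% of all genes). The list's median difference was 0.02 in replicates 1 and 3 and -0.28 in replicates 2 and 4, where 1 gene, Gins1, was higher in CD44hi. Cdc6, which loads the replicative helicase, read 11.43 and 11.40 in CD44hi and 11.40 and 11.40 in CD44lo in replicates 1 and 3, and 9.47 and 9.42 in CD44hi and 10.47 and 10.49 in CD44lo in replicates 2 and 4. Both groups were lower in the second set, and CD44hi the more so, by 2.06-fold.

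**Figure D4:**
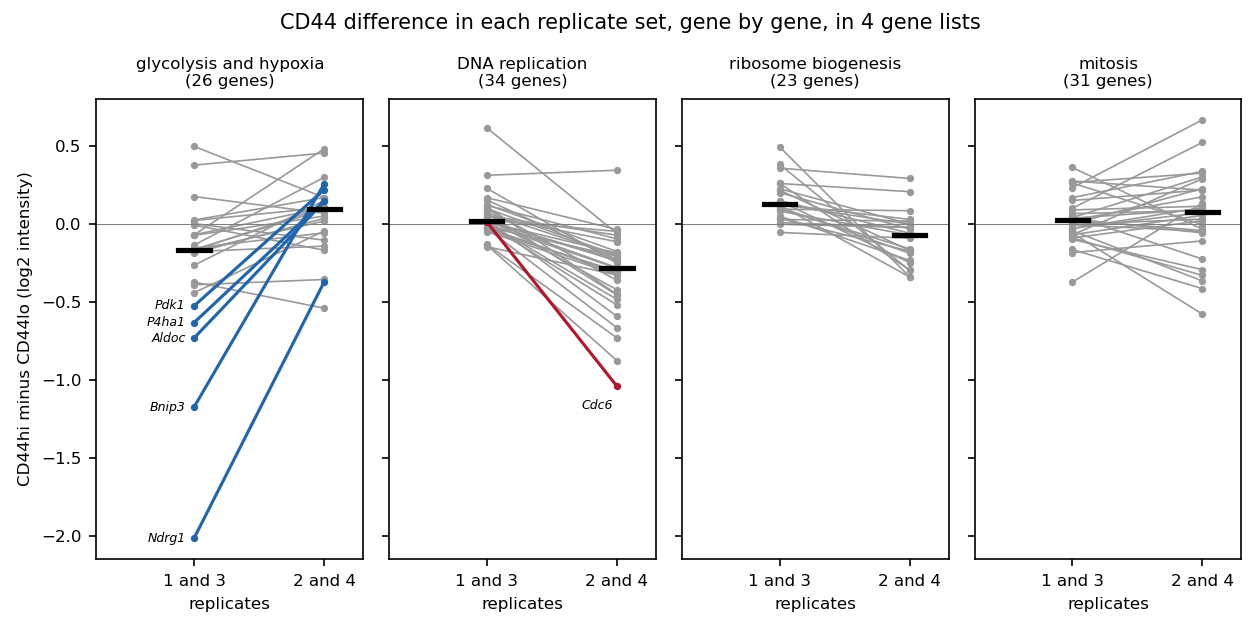
CD44hi minus CD44lo difference on the log2 scale (vertical axis) in replicates 1 and 3 and in replicates 2 and 4 for each gene of 4 gene lists, joined by a line per gene. Black bars are list medians, coloured lines the genes among the 188; the medians go from -0.16 to 0.10 in glycolysis and hypoxia, from 0.02 to -0.28 in DNA replication, from 0.13 to -0.07 in ribosome biogenesis and from 0.03 to 0.08 in mitosis.

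The plot of gene lists shows 2 further lists of proliferating cells, ribosome biogenesis and mitosis, and the lists of nucleotide synthesis and DNA repair are given in words. In nucleotide synthesis 15 of 17 genes were above 0 with a median of 0.31, and Shmt1, a serine hydroxymethyltransferase of folate metabolism, was among the 188 with differences of 0.20 and -0.58. In DNA repair 14 of 18 were above 0 with a median of 0.33, with Exo1, an exonuclease, at 0.15 and -0.57 and Ung, the uracil glycosylase, at -0.08 and -0.95. Ribosome biogenesis had all 23 genes above 0 with a median of 0.21 and none among the 188, and with arrays centred on their medians 18 of 23 were above 0. Its median was 0.10 without CD44hi array 2 and 0.36 without CD44hi array 4. Mitosis genes had a median of -0.06, with 12 of 31 above 0 and none among the 188. In nucleotide synthesis 5.88% of genes were among the 188 and in DNA repair 11.1%, against 1.52% of all genes. No list was tested as a set, and single genes in these lists mostly missed the threshold.

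The lists of antigen presentation (17 measured), interferon-stimulated genes (26) and apoptosis regulators (24) each held 2 of the 188, and that of p53 targets (20) held Fas. The shares were 11.8%, 7.69%, 8.33% and 5.0%, against 1.52% of all genes. H2-Ab1, a chain of MHC class II, read 6.25 and 6.20 in CD44hi and 7.21 and 6.97 in CD44lo in replicates 1 and 3, and 7.23 and 7.32 in CD44hi and 6.80 and 6.68 in CD44lo in replicates 2 and 4. Its arrays were separated in opposite directions, by -0.86 and 0.54, but its 2 other probe sets gave weak interactions of -0.18 and -0.44. Cd74, the invariant chain that accompanies MHC class II, differed by 0.90 and -0.07, the opposite sign of interaction. Isg20, an interferon-induced exonuclease, differed by 0.55 and -0.52, and Mx1, an interferon-induced GTPase, by 0.25 and 1.09. Of 26 interferon-stimulated genes these were the members, and the list median was -0.01.

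Fas, a death receptor, differed by -0.32 and 0.71. Bid, a BH3-only protein that links death receptors to mitochondria, differed by 0.33 and -0.45. Casp1, the inflammatory caspase, was lower in CD44hi in both sets, by -0.46 and -1.54. Of 5 histone genes measured, H2aw and H1f2 were among the 188 (40.0%, against 1.52% of all genes). Both were below 0 (-0.90 and -0.80), with CD44hi arrays 1 and 3 the lowest. Hspa1b, an inducible Hsp70, differed by -0.75 and 0.18 and was lower in both groups in replicates 1 and 3, at 10.25 to 11.12 against 12.75 to 13.02. Probes for histone, Hsp70 and MHC genes can bind close relatives, so these assignments are uncertain.

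The largest interactions below 0 otherwise fell on genes of varied function, most of them read through 1 probe set. Hcrt, which encodes the neuropeptide precursor of the hypocretins, read 7.34 and 7.36 in CD44hi and 6.60 and 6.77 in CD44lo in replicates 1 and 3, and 10.01 and 10.21 in CD44hi and 6.69 and 6.45 in CD44lo in replicates 2 and 4. CD44hi arrays 2 and 4 stood far above the rest, and CD44hi was 1.59-fold higher in the first set and 11.6-fold in the second (interaction -2.88, SE 0.16).

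Maoa, a mitochondrial monoamine oxidase, read 10.23 and 10.21 in CD44hi and 11.63 and 11.66 in CD44lo in replicates 1 and 3, and 10.42 and 10.43 in CD44hi and 10.08 and 10.04 in CD44lo in replicates 2 and 4. Here CD44lo arrays 1 and 3 were the high ones, and that combination lay farthest from the mean of the other three. Wnt6, a secreted Wnt ligand, read 8.08 and 7.96 in CD44hi and 7.996 and 7.95 in CD44lo in replicates 1 and 3, and 8.90 and 9.06 in CD44hi and 7.08 and 7.24 in CD44lo in replicates 2 and 4. The groups overlapped in the first set and lay 3.54-fold apart in the second.

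Rassf8, Ckb and Cox7a1 were higher in CD44hi in both sets and more so in replicates 2 and 4. Rassf8, a Ras association domain protein, was 4.94-fold and 19.4-fold higher. Its CD44lo means of 5.38 and 5.19 lay under the 25th percentile of all values (5.43), so these folds are uncertain. Ckb, the brain creatine kinase, was 1.73-fold and 5.69-fold higher, and Cox7a1, a cytochrome c oxidase subunit, 2.48-fold and 6.96-fold. Slc22a21, a carnitine transporter, Ddx25, an RNA helicase, Fgd6, Ccdc65 and Mipol1 had differences of -0.37 to 0.17 in replicates 1 and 3 and of 1.08 to 1.59 in replicates 2 and 4.

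Among the largest interactions above 0, Gja1, the gap junction protein connexin 43, read 7.46 and 7.75 in CD44hi and 7.20 and 7.18 in CD44lo in replicates 1 and 3, and 5.21 and 5.56 in CD44hi and 6.77 and 6.89 in CD44lo in replicates 2 and 4. CD44hi arrays 2 and 4 were low, near the 25th percentile of all values. Its other 5 probe sets all had interactions above 0, from 0.23 to 1.97. F2r, a thrombin receptor, differed by 0.09 and -1.69, with 2.18 (SE 0.24) on its second probe set. Fam114a1 differed by -0.40 and -2.16, and both of its probe sets gave an interaction of 1.76 or 1.75.

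Rin1, a Ras effector, differed by 0.23 and -1.56. Pcp4, a calmodulin-binding protein, was 3.31-fold and 9.57-fold lower in CD44hi. Apon had an interaction of 1.45 (SE 0.26). In contrast Nos1, the neuronal nitric oxide synthase, read 7.41 and 7.38 in CD44hi and 5.76 and 5.68 in CD44lo in replicates 1 and 3, against 5.74 and 5.89 in CD44hi and 5.72 and 5.84 in CD44lo in replicates 2 and 4. Only CD44hi arrays 1 and 3 were high, and the groups overlapped in the second set. Serpinb1a, an inhibitor of neutrophil proteases, behaved alike in sign, with differences of 1.60 and -0.09, but at levels of 4.60 to 6.65. Nts, the neurotensin precursor, was 5.32-fold and 1.82-fold higher in CD44hi. H2-Q10, a class I MHC gene with close relatives, was 7.57-fold and 2.31-fold higher.

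In 10 genes the groups were apart by at least 0.5 in both sets and in opposite directions. Beside Havcr2, Isg20, Fosl2 and H2-Ab1 these were Epcam, Adam8, Bspry, Fxyd5, Ripor1 and Bmpr2. Epcam, an epithelial adhesion molecule, read 11.86 and 11.98 in CD44hi and 11.04 and 11.22 in CD44lo in replicates 1 and 3, and 10.78 and 11.08 in CD44hi and 11.71 and 11.52 in CD44lo in replicates 2 and 4. CD44hi was 1.73-fold higher in the first set and 1.60-fold lower in the second. Adam8, a membrane metalloprotease, differed by 0.57 and -0.86, and Fxyd5, a regulator of the sodium pump, by 0.58 and -0.55. Bspry differed by 0.51 and -0.71. Ripor1, an inhibitor of the GTPase RhoA, differed by -0.92 and 0.52, and Bmpr2, a receptor of bone morphogenetic proteins, by -0.54 and 0.83.

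Markers of other cell types were read for the same arrays. Of the 9 epithelial markers only Epcam was among the 188 (11.1%, against 1.52% of all genes). Their summed intensity was 4502 and 4767 on CD44hi arrays 1 and 3, 2725 and 3023 on CD44lo arrays 1 and 3, 2254 and 2647 on CD44hi arrays 2 and 4, and 3861 and 3449 on CD44lo arrays 2 and 4. That sum moved with Epcam, while Krt5, Krt8, Krt14, Krt19, Cldn3 and Cldn4 had mean log2 intensities of 4.21 to 6.43 in every combination. Krt18 and Cdh1 are not given singly. In the list 7 of 9 genes had an interaction above 0, with a median of 0.22 against 0.00 over all genes. Its median CD44 difference was 0.17 in replicates 1 and 3 and 0.07 in replicates 2 and 4. Of 14 fibroblast and stromal markers, Postn, a matrix protein, and Pdgfra, a receptor of platelet-derived growth factor, were among the 188 (14.3%). Postn was 7.55-fold and 3.68-fold lower in CD44hi and Pdgfra 5.82-fold and 10.6-fold higher. The second Pdgfra probe set differed by 1.01 and 1.19 on the log2 scale. Its interaction was -0.18 (SE 0.26) beside -0.86 (SE 0.13), so the value for Pdgfra depends on the probe set. Col1a1, Col1a2, Col3a1 and Dcn had mean log2 intensities of 4.60 to 5.69. The summed intensity of this list was 1297 to 2012 in CD44hi and 1596 to 3298 in CD44lo.

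The sum of 14 macrophage markers was 686 to 714 on all arrays of replicates 1 and 3, 1629 and 1646 on CD44hi arrays 2 and 4, and 1223 and 1264 on CD44lo arrays 2 and 4. Cd68 made up most of that shift, and Adgre1, Csf1r, Cd14, Itgam and C1qa lay between 4.18 and 5.62. The other markers of the list are not given singly. CD44hi was the higher group for 7 of the 14 in replicates 1 and 3 and for 12 in replicates 2 and 4. The list's median differences were 0.02 and 0.10. None of the macrophage, B cell, granulocyte, NK cell, erythroid or endothelial markers was among the 188, against 1.52% of all genes. In lists this small nothing is read from that. Of 8 dendritic cell markers Cd74 was among the 188 (12.5%), with Itgax, Flt3 and Xcr1 at 4.01 to 5.03. The T cell sum was 58505 to 65517 over all arrays. The B cell sum was 3608 and 3372 on CD44hi arrays 1 and 3, 6074 and 4956 on CD44hi arrays 2 and 4, and 483 to 538 on all CD44lo arrays. The dendritic cell sum was 4579 and 4672 on CD44hi arrays 1 and 3, 3174 and 2867 on CD44hi arrays 2 and 4, and 1220 to 1310 on all CD44lo arrays. Both sums thus differed between the replicate sets in CD44hi while the CD44lo arrays lay close together. On CD44hi arrays Ebf1 made up most of the B cell sum. It read 11.59 and 11.47 on arrays 1 and 3 and 12.43 and 12.07 on arrays 2 and 4. The median CD44 difference over the B cell list was 0.07 in replicates 1 and 3 and 0.00 in replicates 2 and 4. Over the dendritic cell list it was 0.03 and 0.00, so neither sum speaks for its whole list. Cd74, at 7.67 and 7.74 on CD44hi arrays 1 and 3, was too dim to make up most of the dendritic cell sum. That sum rests mostly on list markers not given singly here. For granulocyte, NK cell and erythroid markers the sums over all arrays were 315 to 345, 88.3 to 107 and 290 to 415. For endothelial markers the sum was 1063 to 1638 on CD44hi arrays and 650 to 883 on CD44lo arrays. None of the 9 endothelial genes had an interaction above 0, with a median of -0.16 against 0.00 over all genes. Their median levels were low, at 4.68 to 4.97 in the 4 combinations. The part of other cells in the differences was not tested.

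The ratio of 3′ to 5′ probe sets, a sign of RNA integrity, also differed a little. For Actb the log2 ratio was 0.47 and 0.53 on CD44hi arrays 1 and 3, 0.38 and 0.44 on CD44lo arrays 1 and 3, 0.79 and 0.71 on CD44hi arrays 2 and 4, and 0.61 and 0.56 on CD44lo arrays 2 and 4. For Gapdh the difference CD44hi minus CD44lo was 0.11 in replicates 1 and 3 and 0.13 in replicates 2 and 4. Its part in the interactions was not tested.

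In all, 45 of the 188 genes were in at least 1 of the 42 lists and 143 in none. They made up 5.78% of the 779 list genes measured, against 1.52% of all genes, and the lists were chosen with earlier results of these data known, so nothing is read from that share. Of the 32 pathway lists, 13 held no member, with medians between -0.06 and 0.25: mitosis, ribosome biogenesis, G1 regulators, ER stress, cholesterol synthesis, oxidative phosphorylation, T cell receptor signalling, cytokine ligands, STAT5 targets, Notch and Myc, SWI/SNF and Polycomb subunits, oxidative stress and lysosome.

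A second measurement of the same RNA was at hand for 65 of the 188 genes, in 104 probe sets that the choice of genes did not use. Of these 97 had the same sign as the gene's interaction, and 17 passed an adjusted p of 0.05 over all probe sets in limma, all with the same sign. Over all genes 0.801% of such unused probe sets passed. The median interaction of the 104 was 60.7% of the gene's own value, and 84.0% for the 56 with a mean log2 intensity of at least 7, of which 53 had the same sign. They share the arrays and the RNA with the choice of genes, so they bear on the probes and not on the replicates.

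The averages that the interaction does not contain were also given by the fit. The CD44 difference averaged over both sets passed an adjusted p of 0.05 in limma in 131 of the 188 genes (69.7%), against 11.8% of all genes, with 68 higher (5.68% of all genes) and 63 lower (6.16%) in CD44hi. The difference of replicates 1 and 3 from 2 and 4 averaged over both groups passed in 145 (77.1%), against 29.3%. These shares use the same estimate of spread as the choice of genes, which favours genes with small spread, so nothing is read from them. The median of the genes' mean log2 intensity was 9.22, beside 9.03 over all genes, and 9 of the 188 had a combination below the 25th percentile of all values.

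Around the threshold the genes just inside were Serpinb9b (interaction 1.24), Sulf2 (0.72) and Tat (-0.76). Just outside were Tk1 (0.77), Septin4 (-1.45) and Tspan4 (0.76), which are as large.

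The number of genes past the threshold changed with the fit and with the arrays used. With the replicate number as a block, which leaves the interactions themselves unchanged and 2 residual degrees of freedom, 6 genes above 0 and 6 below passed in limma. They were F2r, Fam114a1, Nos1, Pdcd1, Plek and Prf1 above 0, and Fosl2, Hcrt, Maoa, Ndrg1, Rassf8 and Wnt6 below. Leaving out any array other than CD44hi 2 or 4 left 9 to 17 genes past the threshold, while without CD44hi array 2 there were 279 and without CD44hi array 4 there were 399. The 9 genes that passed whichever single array was left out were Fosl2, Hcrt, Maoa, Ndrg1, Nos1, Pdcd1, Plek, Prf1 and Wnt6. The sign of the interaction was the same for all 188 genes under each alternative that measured them.

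**Figure D5:**
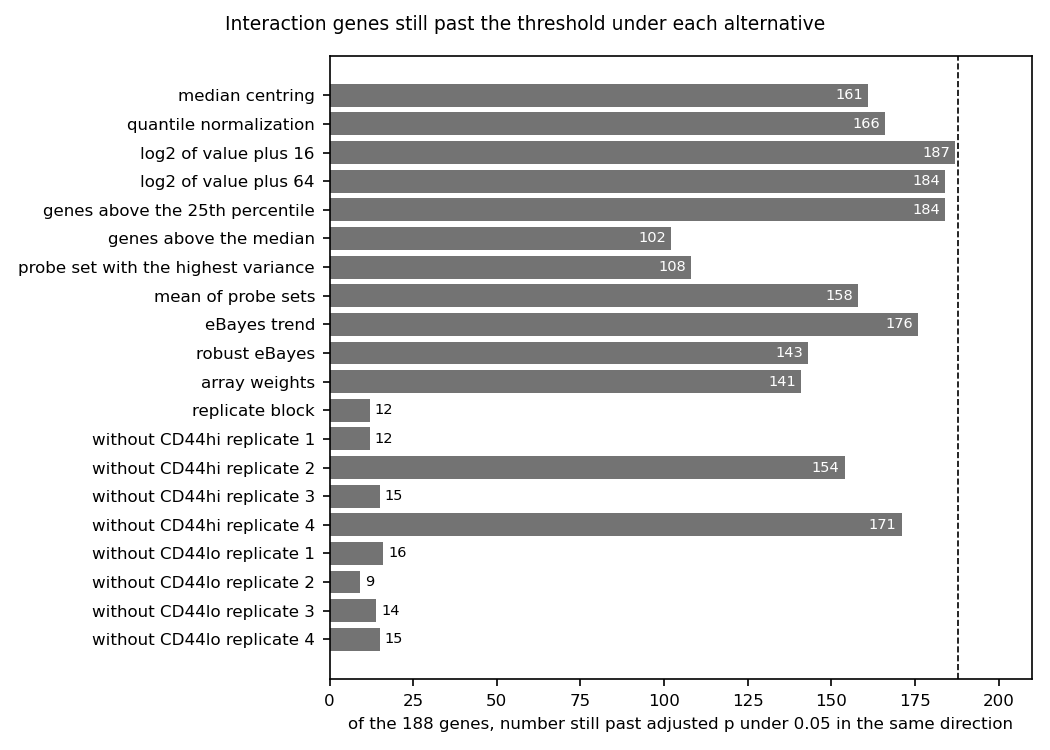
Number of the 188 genes that still passed an adjusted p of 0.05 in the same direction (horizontal axis) under each alternative processing or with 1 array left out (vertical axis). The dashed line marks 188; the block and 6 of the 8 single arrays left out kept 9 to 16 genes, and the other settings 102 to 187.

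The plot of genes kept under each alternative shows that normalization, probe set and variance choices kept 102 to 187 of the 188, the lowest being the filter at the median level, which tested only 102 of them.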

How the data were processed

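RNA of 4 CD44hi and 4 CD44lo samples was hybridised to 1-colour arrays, and groups and replicate numbers were taken from the titles. Per the labels' protocols, the authors turned scanner files into probe set intensities with Robust Multichip Average (background correction, normalization between arrays, summary of probes), in a version the sources used here do not name. The deposited values lay between 7.61 and 36127.7, so they were read as linear and log2 was taken with no pseudocount. Robust Multichip Average shrinks differences near background, so folds of dim genes are likely understated.

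Of 22690 probe sets 64 were controls, 20380 had 1 gene symbol, 691 several and 1555 none. A RefSeq table (GRCm38.p6) held 20351 of these symbols by gene identifier, with 0 to be changed. Each of 12393 genes was read from its probe set with the highest mean, and 4956 genes had several. The genes and lists were chosen with earlier results of these data known.

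A model of 4 means was fitted in limma 3.58.1 (R 4.3.3; lmFit, then eBayes), with Benjamini-Hochberg adjustment over all genes. The fit was tested on simulated data. Named are the 15 largest interactions in each direction (passing over clone names), up to 8 in each direction with opposite differences of at least 0.5, up to 4 members of each list, 3 genes either side of the threshold, and 5 design genes. Marker genes, Gins1, Egr2 and Ier5 lie outside this rule.

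Across genes, the deviations of a CD44hi array and the CD44lo array of its number from their groups' means had correlations of 0.574 (number 1), 0.404 (2), 0.533 (3) and 0.531 (4). All exceed 0.1, but these deviations contain the difference between the replicate sets that both groups share. They therefore do not show that the numbers pair the arrays, and the labels do not say so either. The main fit had no block, and the count with the block is given beside it. Within a replicate set the correlation was 0.155 for replicates 1 and 3 and 0.079 for 2 and 4. Alternatives were other scalings, added constants, filters on level, the choice of probe set, the variance model, array weights, a replicate block, other thresholds and leaving out each array. Medians of gene lists under scalings and leave-outs were added after the data were seen.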

Additional observations from a re-analysis of the deposited data

Results flagged for a closer look

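The 94 genes above 0 and the 94 genes below 0 for the interaction are listed for a closer look because the CD44 difference itself differed between replicates 1 and 3 and replicates 2 and 4 in the limma interaction. What the replicate numbers stand for is not in the labels. Of 2246 probe sets with no single gene symbol, which the report's genes leave out, 12 passed the same threshold (0.534%), with 8 above 0 and 4 below. Single arrays apart from the other three of their group were looked for with Dixon's criterion in 142 groups of 4 and gave none, but a group in which 2 arrays differ from the other 2 cannot meet that criterion, so nothing is read from it.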

How the results depend on the processing

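The main counts were 94 genes above 0 and 94 below. They were 169 and 139 after 16 was added to the intensity and 208 and 169 after 64, 150 and 131 among genes above the 25th percentile, and 167 and 145 with a trended prior. With the replicate block they were 6 and 6. At an adjusted p under 0.01 they were 11 and 10, at 0.10 they were 195 and 167, and with an interaction of at least 1 they were 44 and 46. Leaving out 1 array gave 4 to 253 genes above 0 and 5 to 160 below: 6 and 6 without CD44hi replicate 1, 119 and 160 without CD44hi 2, 7 and 10 without CD44hi 3, 253 and 146 without CD44hi 4, 7 and 9 without CD44lo 1, 4 and 5 without CD44lo 2, 7 and 7 without CD44lo 3, and 7 and 8 without CD44lo 4. Where an array is left out, a combination has 1 array, which is assumed to vary like the others. The cause of the differences was not tested. Median centring (75 and 103), quantile normalization (77 and 101), the probe set of highest variance (68 and 76), the mean of probe sets (132 and 100), robust estimation (66 and 77), array weights (75 and 79), all probe sets (94 and 99) and genes above the median (125 and 108) stayed within 1.5 times. Of 1534 values of named genes under alternatives, 1020 kept direction and side of the threshold, 487 were no longer past it and 27 newly passed. None of the called ones reversed, and 7 values of genes not called changed sign. The lowest signal limits dim genes: array medians of bacterial control probe sets were 3.95 to 4.12, and 1 of the 188 genes had a combination below the highest of them.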

Other observations

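Genes of this paragraph were chosen after their values were seen. Genes that respond to low oxygen and were not in the list used above were not counted as a group, so these values add nothing to that list. Slc16a3, a lactate exporter, read 8.95 and 8.99 in CD44hi and 10.18 and 10.19 in CD44lo in replicates 1 and 3, and 9.48 and 9.60 in CD44hi and 9.67 and 9.70 in CD44lo in replicates 2 and 4. CD44hi arrays were the lower ones in both sets, by 1.21 in the first and 0.14 in the second. Ak4, a mitochondrial adenylate kinase, differed by -0.62 and 0.07, an interaction of -0.69. Other Ak4 probe sets gave interactions of -0.18, -0.56 and 0.22, the last at a mean log2 intensity of 4.10. Hilpda, a lipid droplet protein, differed by -0.51 and 0.24, and Kdm3a, a histone demethylase, by -0.31 and 0.34.

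Innate and surface receptors above 0 included Tlr1, a Toll-like receptor, which read 10.54 and 10.69 in CD44hi and 10.44 and 10.63 in CD44lo in replicates 1 and 3, and 9.77 and 10.06 in CD44hi and 11.20 and 11.19 in CD44lo in replicates 2 and 4. The groups overlapped in the first set and not in the second. Tlr6, which pairs with the same partner receptor TLR2, differed by 0.47 and -0.85, and Slamf7, a receptor of lymphocytes, by -0.70 and -1.86. Creld2 and Pdia6, proteins of the endoplasmic reticulum, differed by 0.21 and -0.82 and by 0.32 and -0.40. These genes were picked by their values too.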
